A study of Mus musculus with 4 samples.

Results

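The genes described here encode the transforming growth factor beta (TGF-beta) ligands Tgfb1, Tgfb2 and Tgfb3, the receptors Tgfbr1 and Tgfbr2, the signal-carrying Smads Smad2 and Smad3, and the feedback inhibitors Smad7, Skil and Pmepa1. These 10 genes, of 18010 measured, were chosen by name with their values after electroconvulsive stimulation (ECS) already known, so their differences between groups are given as a description and carry no test. Expression was measured on 4 exon arrays of dentate gyrus, a part of the hippocampus rich in granule neurons, dissected from 8-week-old male wild-type C57/Black6 mice. The sham group (2 arrays) and the ECS group (2 arrays) were both taken at 4 h, and ECS was a train of 0.3 ms pulses of 18 mA at 100 Hz lasting 1.0 s, which evokes a seizure. Replicates are named biological in the labels, which leave unsaid whether animals were pooled, so errors describe the spread between arrays only.

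TGF-beta ligands are secreted in a latent complex and, once freed, bind the type II receptor Tgfbr2, which activates the type I receptor Tgfbr1. The activated receptor phosphorylates Smad2 and Smad3, which enter the nucleus with Smad4 and switch target genes on or off. Several of the targets in turn damp the signal: Smad7 blocks the receptor, Skil (also named SnoN) is a corepressor bound to Smads on DNA, and Pmepa1 is a membrane protein that holds Smad2 and Smad3 away from the receptor. In brain the ligands are known to act on microglia, vessels and neurons.

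Values are log2 expression from robust multi-array averaging (RMA), as the mean over the probesets of a transcript, and a difference is ECS minus sham on that scale. The 10 genes had 12 transcript rows, all with probesets. The paired rows of Tgfbr2 and of Skil rest on the same probesets and had the same values, which left 10 distinct profiles. No probeset of these genes was listed for another gene. A probeset's brightness depends on its sequence, so levels are compared between arrays and never between genes. The median over genes was 7.25 and 7.35 on the sham arrays and 7.26 and 7.20 on the ECS arrays. Across genes, r was 0.993 within either group and 0.987 to 0.990 between groups. Of 12 granule cell markers 11 were measured and none was at 0. In limma 2 of them, Tdo2 and Dsp, fell and 0 rose at an adjusted p under 0.05; 5 were lower and 0 higher at an unadjusted p under 0.05, where 10.5% of all genes were lower and 6.39% higher. The list's median difference was -0.15, and its summed intensity was 8602 and 8958 in sham and 7316 and 7648 after ECS. On both ECS arrays 6 of 11 were lower and 2 higher, where 30.7% of all genes were lower and 18.7% higher. The highest difference was that of the granule cell transcription factor gene Prox1, which read 9.29 and 9.40 in sham and 9.60 and 9.53 after ECS, while the calbindin gene Calb1 read 9.71 and 9.95 and then 9.28 and 9.35. The part of granule cell markers in the values below was not tested. In whole tissue, fewer cells of a type and less RNA per cell cannot be told apart.

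In the deposited mapping, whose genome build is not given in the sources used here, the genes lay at the following positions, counted from 1. Tgfb1 had 7 exons at chr7:26472021-26490015, Tgfb2 had 7 at chr1:188447065-188529871 and Tgfb3 had 7 at chr12:87397694-87419991. Tgfbr1 had 9 exons at chr4:47366177-47427796, and Tgfbr2 had 8 or 7, by transcript, at chr9:115996814-116084481. Smad3 had 9 exons at chr9:63494574-63605801, Skil 7 at chr3:30993983-31021499 and Pmepa1 4 at chr2:173049966-173102034. Smad2 had 11 exons at chr18:76401579-76465385 and Smad7 had 4 at chr18:75527019-75555588. The 3 inhibitor genes spanned 27.5, 28.6 and 52.1 kb and the 7 others 18.0 to 111 kb. The values do not tell which exons a probeset lies in, since the mapping lists probesets per transcript and not per exon.

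Across the 10 genes the feedback inhibitors stood highest after ECS, Tgfb3 and Smad3 followed, and the other ligands, both receptors and Smad2 stayed within 0.15 of sham on the log2 scale. In the limma fit over all genes, Smad7, Skil and Pmepa1, 3 of the 10, were higher at an adjusted p under 0.05, where 0.500% of all genes were higher and 0.194% lower. None of the 10 was lower there, and none was at an unadjusted p under 0.05 either, where 10.5% of all genes were lower. Nothing is read from these counts, because the same contrast chose the genes. With any 1 array left out, the difference was 1.48 to 1.65 for Pmepa1, 1.12 to 1.15 for Skil and 0.89 to 1.04 for Smad7. The median difference was 0.33 over the 10 genes and -0.04 over all genes.

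**Figure D1:**
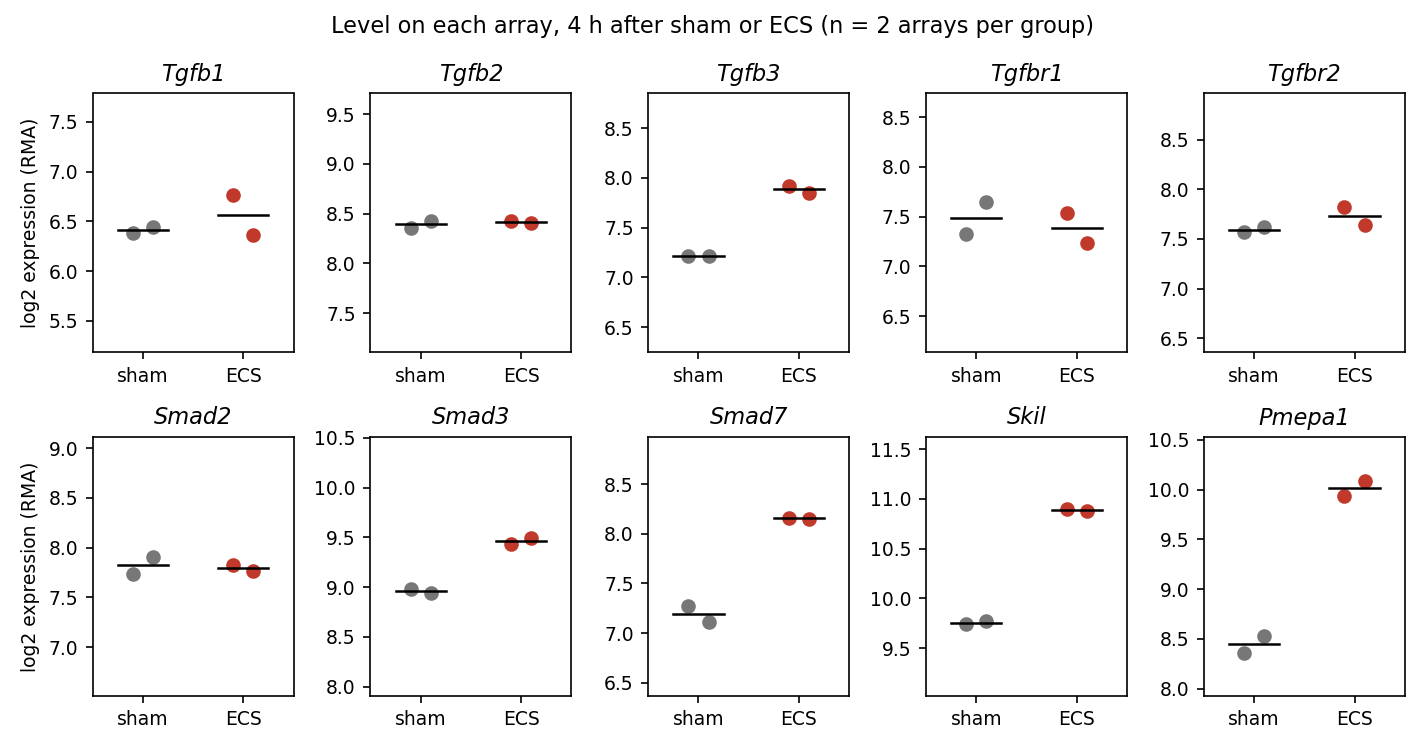
Log2 expression of each gene on every array; the left point of a group is replicate 1, the right point replicate 2 and the bar their mean, and each panel spans the same range of log2 units. Pmepa1, Skil, Smad7, Tgfb3 and Smad3 show ECS points clear of the sham points, while Tgfb1, Tgfb2, Tgfbr1 and Smad2 overlap.

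Pmepa1, which sequesters Smad2 and Smad3, differed most. It read 8.36 and 8.53 on the sham arrays and 9.94 and 10.09 on the ECS arrays. Both ECS arrays lay far above both sham arrays, whose own gap was 0.167. The difference was 1.57 ± 0.11 (moderated SE), or 2.96-fold, between means of 8.44 ± 0.118 and 10.01 ± 0.106 (SD, n = 2), and 15 genes of all measured had a larger one. Only 3 probesets stand behind this value. All 3 were higher on both ECS arrays, by 1.72, 1.68 and 1.29, and the smallest difference belonged to the dimmest of them.

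Skil, the corepressor of Smad target genes, had the most uniform profile. It read 9.74 and 9.77 in sham and 10.90 and 10.88 after ECS. The gap within a group was at most 0.027, so the groups were separated by a distance many times that spread. The difference was 1.14 ± 0.09 (SE), 2.20-fold, and 47 genes had a larger one. Each of its 18 probesets was at least 1.5-fold higher on average and higher on both ECS arrays, with differences from 0.79 to 2.14 and a median of 1.10. The probeset at 2.14 was the dimmest of the 18, with 5.82 and 6.08 in sham against 8.11 and 8.07 after ECS.

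Smad7, the inhibitory Smad that binds the activated receptor and brings ubiquitin ligases to it, read 7.27 and 7.11 in sham and 8.16 and 8.15 after ECS. The ECS arrays nearly coincided and both exceeded the higher sham array. The difference was 0.96 ± 0.10 (SE), 1.95-fold, and 72 genes had a larger one. Of its 8 probesets 7 were higher on both ECS arrays and 6 were at least 1.5-fold higher. The exception, the dimmest probeset, read 6.25 and 5.39 in sham and 5.99 and 5.85 after ECS, so its groups overlapped. The largest probeset difference was 1.76, from 5.75 and 5.38 to 7.57 and 7.07.

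Among the ligands, which share 1 receptor pair, the 3 genes did not look alike. Tgfb3 read 7.21 on each sham array and 7.92 and 7.85 on the ECS arrays. The sham arrays differed by 0.002, and the ECS arrays were both well above them. The difference was 0.68 ± 0.09 (SE), 1.60-fold, although the gene lay outside the 3 past the threshold. Of 9 Tgfb3 probesets 8 were higher on both ECS arrays and 7 at least 1.5-fold higher. The ninth had a difference of -0.02 with overlapping groups. The largest difference, 1.28, came from the dimmest probeset, whose sham arrays disagreed at 5.40 and 3.84.

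Tgfb2, the ligand gene with the most probesets, read 8.36 and 8.43 in sham and 8.43 and 8.41 after ECS. All 4 arrays lay within a narrow band and the groups overlapped. The difference was 0.02 ± 0.09 (SE). Its 18 probesets went both ways: 10 had a positive difference, 4 were higher and 3 lower on both ECS arrays, and the range ran from -0.32 to 0.37.

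Tgfb1, the ligand made by microglia, platelets and other blood and immune cells, read 6.38 and 6.44 in sham and 6.76 and 6.36 after ECS. ECS replicate 1 stood above the other arrays, while ECS replicate 2 was the lowest of all. The difference was 0.15 ± 0.15 (SE), and it was -0.05 without ECS replicate 1 and 0.35 without ECS replicate 2. Of 6 probesets 3 were higher on both ECS arrays, the largest by 0.50, and the others differed by -0.01, -0.02 and -0.18. The probeset at -0.18 was the dimmest of the 6, with 5.85 and 5.28 in sham and 6.07 and 4.70 after ECS. ECS replicate 2 was the lowest array in these others only, and by most in the dimmest.

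Oligodendrocyte lineage markers were, like the mean of the Tgfb1 probesets, highest on ECS replicate 1 and lowest on ECS replicate 2. The 12 measured of 13 listed had summed intensities of 9199 and 8489 in sham and 11659 and 8224 after ECS, with none called and 0 higher or lower at an unadjusted p under 0.05 in limma. Blood markers were highest on ECS replicate 1 too, but stayed above both sham arrays on ECS replicate 2. The 5 measured of 7 blood markers formed 3 distinct profiles, because the 2 alpha globin genes share all their probesets and so do the 2 beta globin genes. With each profile counted once, the summed intensity was 2932 and 4553 in sham and 6962 and 5791 after ECS. All 3 profiles were higher on both ECS arrays, as 18.7% of all genes were, and none was called. All 3 were also higher at an unadjusted p under 0.05, as 6.39% of all genes were. No measured marker of these cell types was at 0. The 13 measured of 14 microglia markers had summed intensities of 2643 and 2707 in sham and 2491 and 2426 after ECS, with none called. At an unadjusted p under 0.05, 0 were higher and 1 lower (6.39% and 10.5% of all genes). The part of these cell types in the Tgfb1 values was not tested.

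The type I receptor gene Tgfbr1 read 7.33 and 7.65 in sham and 7.54 and 7.23 after ECS. Sham replicate 2 and ECS replicate 1 were the high arrays, so the spread lay within groups. The difference was -0.10 ± 0.16 (SE), the largest SE among the 10 genes, and it became 0.06 without sham replicate 2 and -0.26 without sham replicate 1. A pair of dim probesets carried much of this pattern: one read 3.03 and 4.68 in sham and 4.79 and 2.69 after ECS, the other 4.28 and 5.81 and then 6.04 and 4.48. The brightest, in contrast, stayed between 10.73 and 10.81 on all 4 arrays. Of the 14 probesets 3 were higher and 2 lower on both ECS arrays.

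The type II receptor gene Tgfbr2 read 7.57 and 7.62 in sham and 7.82 and 7.64 after ECS. The ECS arrays were both higher, but the lower of them only just cleared sham replicate 2. The difference was 0.14 ± 0.10 (SE), smaller than the gap of 0.172 between the ECS arrays. Of 8 probesets 3 were higher on both ECS arrays, by 0.52, 0.44 and 0.34, and 1 was lower, by -0.32.

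Markers of vessel and choroid plexus cells, which also carry TGF-beta receptors, varied between arrays. The 11 measured of 12 endothelial and mural markers had summed intensities of 2842 and 3383 in sham and 2963 and 2724 after ECS, with none called, 0 higher and 2 lower at an unadjusted p under 0.05. The 14 meningeal, choroid plexus and ependymal markers summed to 3154 and 6901 in sham and 3525 and 3887 after ECS, with none called and 2 lower at an unadjusted p under 0.05. Of all genes, 6.39% were higher and 10.5% lower at that p. Both lists were highest on sham replicate 2, as Tgfbr1 was, while Tgfbr2 was highest on ECS replicate 1. No measured marker was at 0. Their part in the receptor values was not tested.

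Smad2 and Smad3, close relatives that the receptor activates in the same way, differed from each other in these arrays. Smad3 read 8.98 and 8.94 in sham and 9.43 and 9.49 after ECS. Both ECS arrays were higher by several times the gap within either group. The difference was 0.50 ± 0.09 (SE), 1.41-fold, under the 1.5-fold mark and outside the 3 genes past the threshold. Of 10 Smad3 probesets 9 were higher on both ECS arrays and all 10 had a positive difference, from 0.05 to 0.75.

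Smad2 read 7.74 and 7.91 in sham and 7.83 and 7.77 after ECS. The ECS values lay between the sham values. The difference was -0.02 ± 0.10 (SE) and changed sign in 5 of 11 other settings, some of which cannot move it, so no direction is given. Of 17 Smad2 probesets 9 had a positive difference, 3 were higher and 3 lower on both ECS arrays, and the range ran from -0.54 to 0.26. Whether Smad2 and Smad3 differ in their response was not tested, because the contrast chose them.

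**Figure D2:**
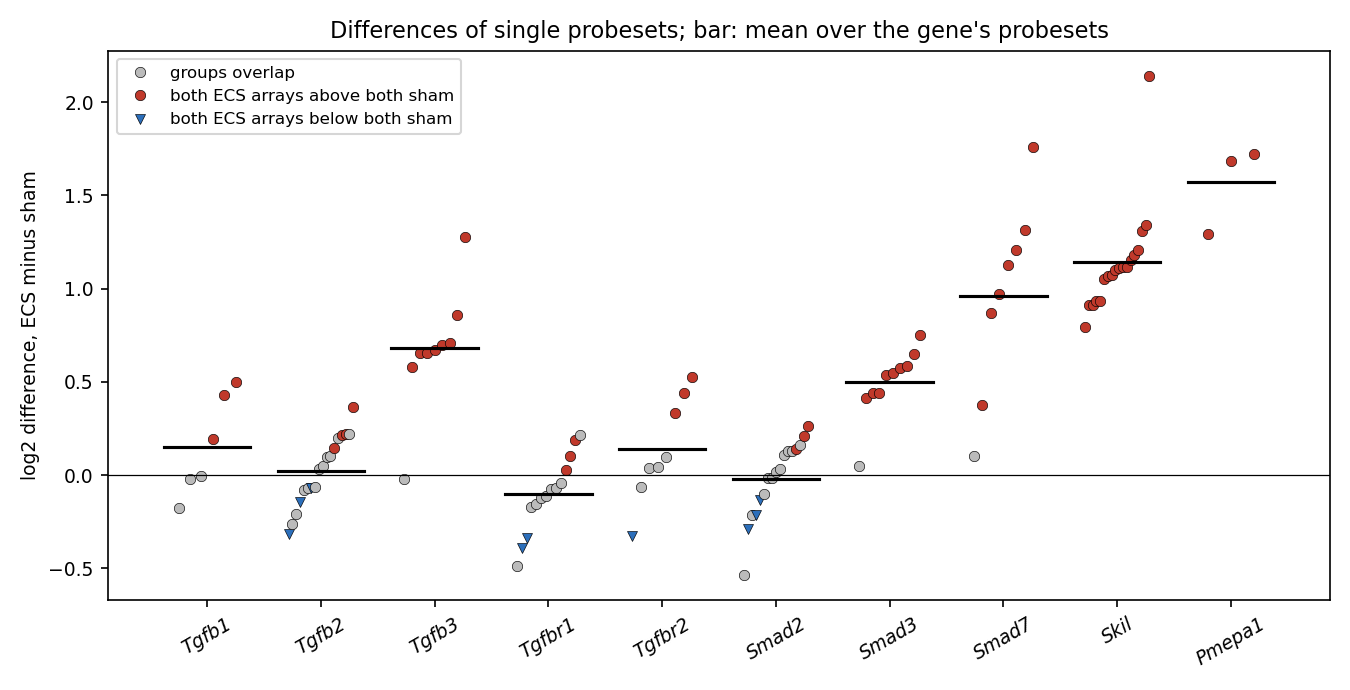
Log2 difference (ECS minus sham) of each probeset of the 10 genes; red circles are higher and blue triangles lower on both ECS arrays, grey circles overlap, and bars are gene means. All Skil and Pmepa1 probesets and most of Smad7, Tgfb3 and Smad3 are red, while Tgfb2, Tgfbr1, Tgfbr2 and Smad2 spread around 0.

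Over all 111 probesets of the 10 genes, 61 were higher on both ECS arrays and 9 lower, where 17.6% of all listed probesets were higher and 25.6% lower. At least 1.5-fold higher were 36 of the 111, where 4.44% of all listed probesets were, and 0 were 1.5-fold lower. The 36 lay in Skil (18), Tgfb3 (7), Smad7 (6), Pmepa1 (3) and Smad3 (2). By gene, 6 of 10 had both ECS arrays above both sham arrays and 0 below, where 18.7% of all genes lay above and 30.7% below. The 6 were the 3 inhibitors, Tgfb3, Smad3 and Tgfbr2. At least 1.5-fold higher were 4 of the 10 genes, where 1.52% of all genes were. Probesets of a gene share its transcripts and are not replicates, and these counts describe the values that chose the genes.

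**Figure D3:**
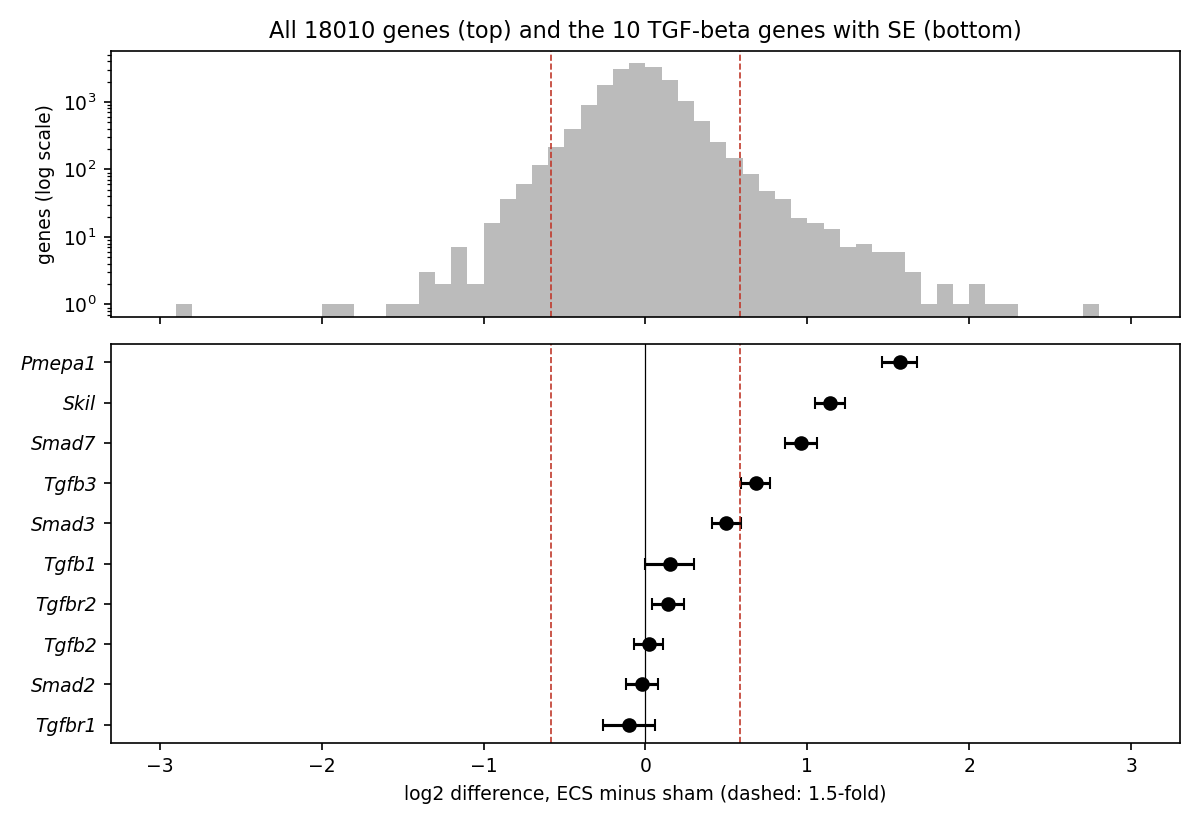
Top, log2 differences (ECS minus sham) of all 18010 genes, on a log count axis; bottom, those of the 10 TGF-beta genes with their SE, and dashed lines at 1.5-fold. Pmepa1, Skil, Smad7 and Tgfb3 lie beyond the upper line, at 1.57, 1.14, 0.96 and 0.68, and no gene of the 10 lies beyond the lower one.

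The array profiles of other genes were set beside those of the 3 inhibitors, by the Euclidean distance between log2 values centred on each gene's mean over the 4 arrays. Nearest to Smad7 were Serinc2, of the serine incorporator family (distance 0.057), the microRNA gene Mir22 (0.064) and its host transcript Mir22hg (0.092), and each of the last pair has a probeset listed for another gene, so their signals are not separate. Nearest to Skil were Rassf8 (0.055), Ppp4r4, a regulatory subunit gene of protein phosphatase 4 (0.076), and the NF-kappaB subunit gene Rel (0.102). Nearest to Pmepa1 were Samd4, an RNA-binding translational repressor gene (0.079), the kinase gene Pim1 (0.144) and the phosphatase gene Dusp14 (0.147, from 1 probeset). Pim1, for example, read 6.60 and 6.81 in sham and 8.37 and 8.39 after ECS. These distances rest on 4 arrays in 2 groups and describe size and array pattern only.

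Beyond the 10 genes, 97 further genes of the pathway were listed by role, and 95 were measured. In limma, with p adjusted over all genes tested, 3 of the 95 rose, 0 fell and 92 did not pass. Of all genes, 0.500% rose and 0.194% fell. At an unadjusted p under 0.05, 16 of the 95 were higher and 4 lower, where 6.39% of all genes were higher and 10.5% lower. The median difference of the 95 was 0.01, against -0.04 for all genes. At least 1.5-fold higher were 8 of the 95, where 1.52% of all genes were, and 0 were 1.5-fold lower. The lists were drawn up with earlier results of these data known, so these counts are a description and nothing is read from them. Fits with 1 array left out leave a group of 1 array, so they cannot tell whether a call among these 95 genes rests on that array. With trend and robust eBayes, 9 of these genes were higher and 2, the ubiquitin ligase genes Nedd4 and Nedd4l, lower.

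Of 22 genes that store, anchor or release latent TGF-beta, 0 passed in limma, and the list's median was -0.07. At an unadjusted p under 0.05, 2 were higher and 1 lower (6.39% and 10.5% of all genes). The proprotein convertase gene Furin, whose product cleaves TGF-beta precursors, read 8.08 and 8.18 in sham and 8.80 and 8.84 after ECS (0.69 ± 0.09, adjusted p = 0.0598, limma). Both Furin values after ECS were above both in sham. Plat, the tissue plasminogen activator gene, had 0.50 ± 0.11 (adjusted p = 0.137). At the low end were the fibrillin gene Fbn1 at -0.30 ± 0.12 (adjusted p = 0.302) and the latent TGF-beta binding protein gene Ltbp4 at -0.27 ± 0.09 (adjusted p = 0.253).

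Of 8 measured genes in the co-receptor and decoy list, which also holds type I receptor genes, 1 rose, 0 fell and 7 did not pass. At an unadjusted p under 0.05, 2 were higher and 0 lower (6.39% and 10.5% of all genes), and the median was -0.01. Acvr1, a type I receptor gene best known for BMP and activin signals, rose from 7.75 and 7.83 to 8.64 and 8.60 (0.83 ± 0.09, 1.78-fold, adjusted p = 0.0399, limma). The ECS arrays were close together and well above sham. In a fit with the replicate number as a block, Acvr1 did not pass. The TGF-beta co-receptor gene Cd109 had 0.38 ± 0.21 with overlapping groups, and Vasn, a TGF-beta trap with each of its 4 probesets shared with another gene, 0.32 ± 0.10. The co-receptor gene Tgfbr3 (betaglycan) had -0.42 ± 0.18 and the decoy receptor gene Bambi -0.16 ± 0.18.

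Of 34 genes of partner Smads and Smad regulators 0 passed in limma, and the median was 0.01. At an unadjusted p under 0.05, 3 were higher and 3 lower (6.39% and 10.5% of all genes). Ski, the closest relative of Skil, read 9.31 and 9.32 in sham and 9.83 and 9.86 after ECS (0.53 ± 0.09, adjusted p = 0.0881, limma). The values of Ski did not overlap between groups and each group's arrays nearly coincided. Tgif1, another Smad corepressor gene, had 0.32 ± 0.09. Lowest were Nedd4 at -0.33 ± 0.10 and Nedd4l at -0.31 ± 0.09, genes of ubiquitin ligases of the family that Smad7 recruits. Smad4, the common partner, had 0.00 ± 0.09, and Smad6, the inhibitory Smad of BMP signals, 0.06 ± 0.12; both were singled out after their values were seen.

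Of 31 measured textbook TGF-beta responsive genes 2 rose, 0 fell and 29 did not pass, with 9 higher and 0 lower at an unadjusted p under 0.05 (6.39% and 10.5% of all genes) and a median of 0.14. The transcription factor gene Klf10, once named TGF-beta inducible early gene, rose from 7.15 and 7.16 to 8.92 and 9.02 (1.81 ± 0.09, adjusted p = 0.0125, limma). Gadd45b, a stress gene that TGF-beta also induces, rose from 6.68 and 6.76 to 8.86 and 8.96 (2.19 ± 0.09, adjusted p = 0.0125). Gadd45b is also known as a gene that neuronal activity induces in the dentate gyrus. The cell cycle inhibitor gene Cdkn1a had 1.09 ± 0.16 (adjusted p = 0.074) and the scaffold gene Nedd9 1.08 ± 0.14 (adjusted p = 0.0583). Lowest were the collagen gene Col1a2 at -0.25 ± 0.25 and the kinase inhibitor gene Cdkn2b at -0.21 ± 0.28.

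**Figure D4:**
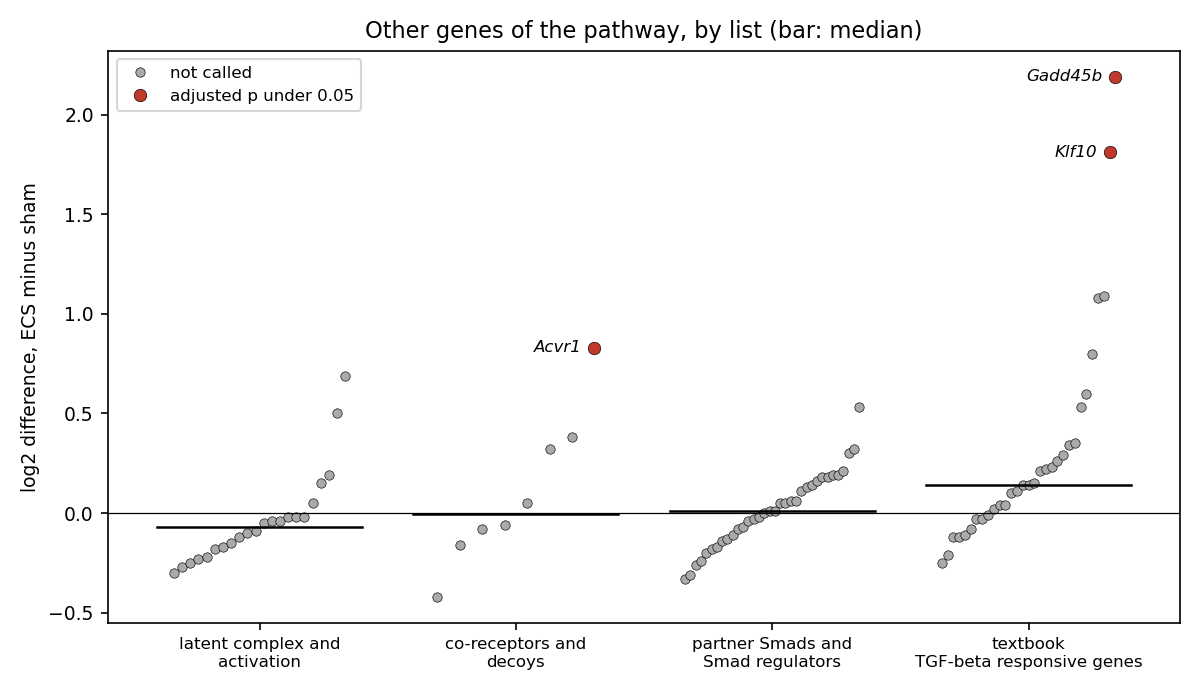
Log2 differences (ECS minus sham) of the other pathway genes in the 4 lists, with called genes in red and bars at the list medians. Gadd45b, Klf10 and Acvr1 are the called genes, at 2.19, 1.81 and 0.83, and the medians lie between -0.07 and 0.14.

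RefSeq promoter sequences (GRCm38.p6, the 250 bases before a start site) were at hand for 5 of the 10 genes, in 6 windows. None was at hand for Pmepa1, Skil, Smad7, Tgfb3 or Smad2. The motif counts below thus cover no gene of the 10 that was at least 1.5-fold higher. A pair of them is shown because it joins a gene whose ECS arrays were higher, Smad3, with a ligand gene whose arrays were level, Tgfb2. Capitals mark CAGAC (the core of the Smad-binding element) and TGACG (a core of the cyclic AMP response element), each on either strand; neither overlaps the other here. The Smad3 window is chr9:63757995-63758244 on the minus strand and the Tgfb2 window chr1:186705990-186706239 on the minus strand.
Smad3: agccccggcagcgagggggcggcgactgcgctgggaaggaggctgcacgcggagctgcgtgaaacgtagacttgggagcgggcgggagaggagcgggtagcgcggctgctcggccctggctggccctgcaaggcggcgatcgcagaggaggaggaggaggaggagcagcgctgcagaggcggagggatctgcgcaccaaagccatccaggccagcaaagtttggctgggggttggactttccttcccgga
Tgfb2: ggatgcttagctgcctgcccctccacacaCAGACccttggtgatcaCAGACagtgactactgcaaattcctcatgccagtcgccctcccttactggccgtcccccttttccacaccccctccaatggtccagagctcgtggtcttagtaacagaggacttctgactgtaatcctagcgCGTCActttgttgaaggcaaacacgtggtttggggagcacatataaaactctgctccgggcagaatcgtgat
The Smad3 window held neither motif. The Tgfb2 window held CAGAC at 221 and 204 bases and TGACG, read on the other strand, at 72 bases before the start, and its levels were within 0.07 of each other on the 4 arrays. CAGAC was found in 3 of the 6 windows, the others being of Tgfbr2 and of the second Tgfbr1 start, and in 42.2% of 32544 windows of the same length. TGACG was in 1 of the 6 and in 17.8% of all. The whole palindromes GTCTAGAC and TGACGTCA and the AP-1 motif TGANTCA were in 0 of the 6, and in 0.169%, 1.55% and 6.73% of all windows.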

How the data were processed

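Dentate gyrus RNA of sham and ECS mice was measured on exon arrays, 2 per group; the labels' protocols give ribosomal RNA reduction and random-primed amplification. The authors deposited log2 values for probesets and for RefSeq transcripts. RMA and the oligo package are named per the submitters' processing notes; versions, build and settings are not given in the sources used here. The transcript values equalled the mean of their mapped probesets within 5.00e-09, over all rows with a probeset. The 3621 of 26106 rows with no probeset, all at 0, were left out. Columns of the transcript table named 0H were taken as sham and 4H as ECS, since no other groups exist in the series; values of single arrays come from the probeset table, whose columns name the samples. Identifiers were matched without versions to RefSeq symbols (24932 of 25635).

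For each gene the transcript row with the highest mean was fitted with limma 3.58.1 in R 4.3.3 (lmFit, eBayes, two-sided, no block), with Benjamini-Hochberg adjustment over 18010 genes and a threshold of 0.05; the residual degrees of freedom were 2 and the prior 3.23, and the number of arrays limits the precision. The fit was tested on simulated data. Members, lists and tests were chosen with earlier results of these data known. Named pathway genes were those called and, beside these, the 2 highest and 2 lowest of each list; nearest profiles were the 3 genes with 1 symbol, gene models left out. Mapping starts were read as counted from 0, because 98.9% of coding lengths were then multiples of 3, against 29.5%. Alternatives were each array left out, other scalings, filters, variance models, thresholds and blocks.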

Additional observations from a re-analysis of the deposited data

How the results depend on the processing

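How many genes were called varied between fits. The limma counts above were 90 higher and 35 lower genes of all, 3 other pathway genes higher and 3 of the 10 TGF-beta genes. In that order they became 242, 216, 8 and 5 when the dimmest 25% were removed, and 219, 180, 8 and 5 at an adjusted p under 0.10. Trend and robust eBayes gave 365, 352, 9 and 5, with 2 pathway genes lower. Median centring gave 18 lower genes and 2 of the 10, Skil and Pmepa1, so that Smad7 was no longer called. Quantile normalization and cyclic loess each gave 5 higher pathway genes and 4 of the 10. Without each single array, higher genes ranged from 0 to 5, lower genes from 0 to 2 and higher pathway genes from 0 to 1, with 0 of the 10 called. These fits take the lone array to vary as the other group does, and leave too few arrays to tell whether a call rests on 1 of them. The replicate block called 26 and 6 genes, 2 higher pathway genes and 1 of the 10, Pmepa1. Smad7, Skil and Acvr1 were not called with it. Deviations of arrays with the same number were weakly and negatively correlated (r = -0.20 across genes). Crossing the numbers gave 106 and 48, with 6 higher pathway genes. The cause of these changes in the counts was not tested. Over 11 settings each, Pmepa1 lay between 1.48 and 1.65, Skil 1.12 and 1.21, Smad7 0.89 and 1.04, Tgfb3 0.65 and 0.75, Smad3 0.47 and 0.57 and Tgfbr2 0.05 and 0.22, while Tgfb1, Tgfb2, Tgfbr1 and Smad2 changed sign in at least 1. Some of these settings could not move a difference of the 10 genes. They were the mean of a gene's rows, the fit without shared probesets, the probeset means and the replicate block. Cyclic loess and the crossed block were added after seeing the data. Groups of 2 arrays are too small to look for outlying arrays.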
